A study of Mus musculus with 22 samples.

Results

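The 10 genes described here code for mitotic cyclins and for kinases and phosphatases linked to entry into mitosis or its control. These genes are Ccna2, Ccnb1, Ccnb2, Cdk1, Cdc25b, Cdc25c, Plk1, Plk4, Pkmyt1 and Mastl. They were chosen by gene symbol, and all 10 were found among the 11208 genes of the deposited table of normalized counts. RNA came from NIH/3T3 cells, an established mouse embryonic fibroblast line, into which a doxycycline-inducible construct had been stably integrated. The construct carried the cell cycle transcription factor E2F1 in the E2F1 line and no insert in the empty vector (EV) line. All 11 groups first spent 48 h in medium with 0.25% serum. The E2F1 line was sampled before (0 h) and after 2, 6 and 12 h of 500 ng/ml doxycycline. The EV line was sampled at 0 h, at 2, 6 and 12 h of 500 ng/ml doxycycline, and at 2, 6 and 12 h of 10% serum. Each group had 2 libraries of polyadenylated RNA, 22 in all. The labels do not say that the replicates were separate cultures, nor whether a line is 1 clone, so the p-values measure the spread between these libraries, which may be technical.

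Entry into mitosis is driven by the kinase Cdk1 bound to a cyclin. Cyclin A2 acts from S phase onwards and the B cyclins act in G2 and mitosis. Pkmyt1 holds Cdk1 inactive by phosphorylation, Cdc25 phosphatases take that phosphate off, Plk1 activates Cdc25 and inhibits the opposing kinase Wee1, and Mastl (Greatwall) restrains the phosphatase that would undo the work of Cdk1. Plk4, a relative of Plk1, starts the building of new centrioles. In resting fibroblasts these genes are held low, and E2F factors are best known for switching on genes of the earlier step, the start of DNA synthesis. The comparisons below ask how far the later genes rose in the E2F1 line with doxycycline, and how that compared with the rise after serum.

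Many promoters of G2 and mitotic genes carry a CHR element (TTTGAA or TTCGAA here) and CCAAT boxes (CCAAT), whereas genes of the G1/S step carry E2F sites (TTTCCCGC, TTTCGCGC, TTTGCCGC or TTTGGCGC here). RefSeq windows of GRCm38.p6, 250 bases before to 50 after the transcript start, were matched for 7 of the 10 genes and searched on both strands. The CHR letters occurred in 4 of 7 windows (Ccnb2, Cdk1, Cdc25b, Plk1), against 19.2% of all 32851 windows. CCAAT occurred in 6 of 7 windows, all but that of Plk4, against 37.4%. Both occurred together in 4 of 7, against 7.52%. An E2F match was found in 1 of 7, that of Cdk1, against 2.26% of all windows. A match is only a match of letters. The stretches below are examples from genes called higher at 12 h of serum against 0 h (Cdk1, Plk4, Mastl) and genes not called higher against 0 h (Ccnb1, Ccnb2). Each reads 5′ to 3′ on the strand of its gene, lies before the RefSeq start and outside GENCODE M21 exons, and has the motif letters in capitals (ATTGG is CCAAT on the other strand).
Cdk1, chr10:69352939-69353098, minus strand: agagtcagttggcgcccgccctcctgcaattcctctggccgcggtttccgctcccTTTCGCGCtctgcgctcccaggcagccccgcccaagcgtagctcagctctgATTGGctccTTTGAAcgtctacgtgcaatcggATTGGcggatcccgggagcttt
Plk4, chr3:40799791-40799950, plus strand: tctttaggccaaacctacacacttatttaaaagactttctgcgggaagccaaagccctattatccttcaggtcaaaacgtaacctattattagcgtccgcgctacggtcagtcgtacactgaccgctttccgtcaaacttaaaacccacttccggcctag
Mastl, chr2:23156025-23156184, minus strand: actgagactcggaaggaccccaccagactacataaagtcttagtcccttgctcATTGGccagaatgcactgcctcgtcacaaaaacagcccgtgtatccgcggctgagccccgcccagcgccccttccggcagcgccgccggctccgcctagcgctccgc
Ccnb1, chr13:100786571-100786730, minus strand: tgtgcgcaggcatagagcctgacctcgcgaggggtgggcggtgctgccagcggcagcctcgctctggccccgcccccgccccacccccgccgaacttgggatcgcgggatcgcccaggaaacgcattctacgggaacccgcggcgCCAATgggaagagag
Ccnb2, chr9:70421555-70421714, minus strand: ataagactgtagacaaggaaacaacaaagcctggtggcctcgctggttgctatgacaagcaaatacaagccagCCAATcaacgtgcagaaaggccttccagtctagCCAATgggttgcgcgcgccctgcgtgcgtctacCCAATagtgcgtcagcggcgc

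In the Cdk1 stretch the E2F letters span positions -131 to -124 from the start, upstream of CCAAT boxes at -80 and -48 and a CHR match at -71. Outside the stretch, the Cdk1 window also holds a CCAAT box at -208 and a CHR match at -15. The Ccnb2 stretch holds 3 CCAAT boxes, at -87, -54 and -21, and its CHR matches lie outside the stretch, at -167 and 5. The Plk4 stretch holds none of the letters searched. Over all 7 windows, the genes called higher at 12 h of serum against 0 h had CHR, CCAAT and E2F letters (Cdk1), CCAAT alone (Mastl) or no match (Plk4). Those not called higher against 0 h had CHR and CCAAT letters (Ccnb2, Cdc25b, Plk1) or CCAAT alone (Ccnb1). CHR and CCAAT letters together thus occurred on both sides. The sides depend on the reference: against EV doxycycline at 12 h, Plk1 (log2 difference 1.48), Ccnb1 (0.78) and Cdc25b (0.66) were called higher with serum. Ccna2 and Pkmyt1, also called higher against 0 h, had no window.

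**Figure D1:**
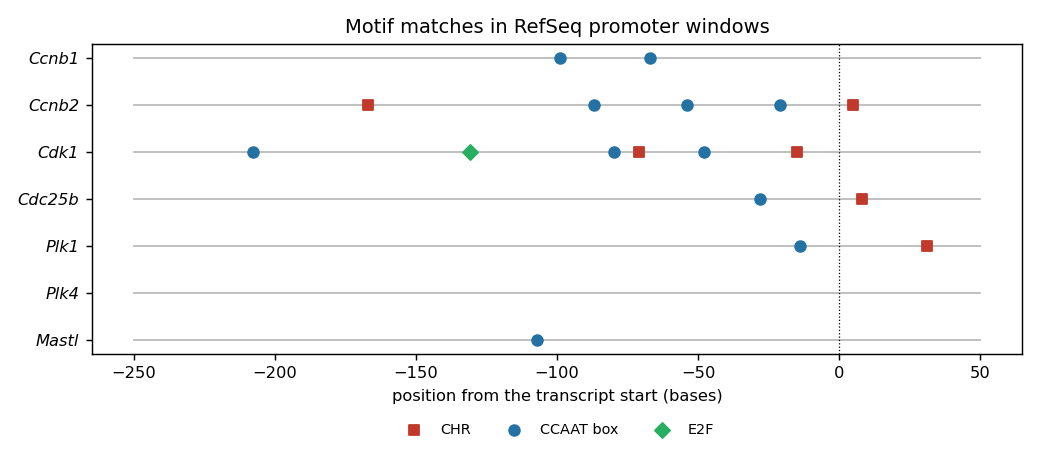
Matches of the CHR (squares), CCAAT (circles) and E2F (diamond) letters in the promoter windows of the 7 genes with a RefSeq window, by distance in bases from the transcript start (dotted line). Ccnb2, Cdk1, Cdc25b and Plk1 hold both CHR and CCAAT letters, Cdk1 alone of the 7 holds an E2F match, and Plk4 holds no match.

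Library totals ran from 34014608 to 46057140 normalized counts over all genes. They were highest with serum at 2 h (45073651 and 46057140) and at 6 h (40132639 and 41407438), and no other library exceeded 37401882. All 9 fibroblast markers looked for were in the table, among them Vim at 84823 to 172387 and Fn1 at 213708 to 440006, while the 13 markers of epithelial, endothelial, blood and muscle cells were not in it and were not analysed here. E2f1 itself, in the E2F1 line, had 1703 and 1637 normalized counts at 0 h, 1535 and 1755 at 2 h, 3806 and 3602 at 6 h, and 2683 and 2845 at 12 h of doxycycline. In the EV line E2f1 stayed between 1307 and 1655 through 12 h of doxycycline, and with serum it had 802 and 740 at 2 h, 1186 and 956 at 6 h and 4615 and 4247 at 12 h. With doxycycline the E2F1 line thus had more E2f1 transcript at 6 h (log2 change 1.15, adjusted p = 9.61e-08) and 12 h (0.73, adjusted p = 1.65e-05), but not at 2 h (-0.02, adjusted p = 0.946). The labels do not give the species of the E2F1 insert, so it is unknown whether these counts include the construct. Changes here and below are differences in log2(value + 1), and adjusted p-values come from limma over all 11208 genes, with 0.05 as the threshold.

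Replicates of the EV line stood apart in these genes. At EV 0 h, which serves as the reference for serum and for doxycycline in that line, all 10 genes were lower in replicate 1 than in replicate 2, by 1.74-fold at the median (log2 differences from -1.14 to -0.44). Only 2.73% of all genes differed between these libraries by as much as that median. All 10 were also lower in replicate 1 at 6 h of doxycycline (median 1.68-fold), 12 h of doxycycline (1.51-fold) and 6 h of serum (1.53-fold). In the other 7 groups the median difference was 1.01-fold to 1.22-fold. Over all genes, replicates differed by 0.1 to 0.16 at the median (absolute log2 values) in the 11 groups. What set the replicates apart was not tested. For this reason each count of the 10 genes comes with its value when a library of the EV or E2F1 line was left out, wherever that changed it by more than 1.5 times, and the lists of other genes were recounted in the same way at 12 h. In such a fit the lone library left in a group is assumed to vary like the other groups. In bulk RNA, a change in the number of cells that express a gene and a change in RNA per cell cannot be told apart.

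**Figure D2:**
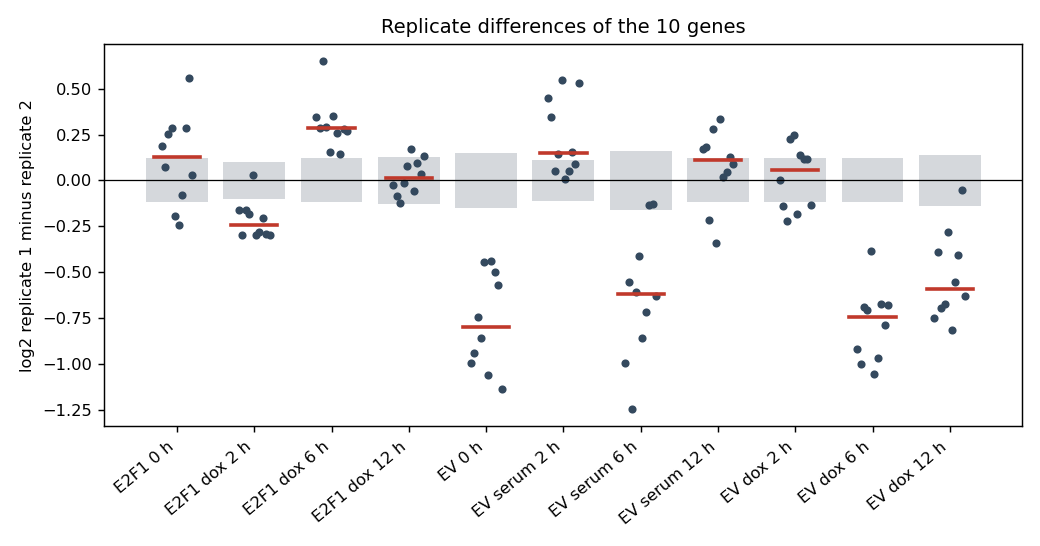
The log2 difference between replicate 1 and replicate 2 for each of the 10 genes (points) in each group, with the median of the 10 (red line) and, in grey, the median absolute difference over all 11208 genes in both directions. In EV 0 h, EV serum 6 h, EV dox 6 h and EV dox 12 h all 10 points lie below 0, with medians from -0.8 to -0.59.

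The whole set was higher in the E2F1 line by 12 h of doxycycline, and only part of it was called at 6 h. At 12 h of doxycycline all 10 genes had risen in the E2F1 line, by 1.27 to 2.67 on the log2 scale with a median of 2.02 (adjusted p from 9.31e-08 to 0.00548). Of all genes 31.8% were called higher in this comparison, and the median change over all genes was -0.02. In every one of the 10, the lower of the 12 h values exceeded the higher of the 0 h values. The share of all genes with such a gap was not counted. None of these calls was lost under any other setting that kept the gene in the fit, or when any of the 4 libraries was left out.

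The cyclins rose most in Ccna2 (ENSMUSG00000027715.9, chromosome 3, 36564865 to 36572150 in GRCm38). In the E2F1 line cyclin A2 had 2814 and 2475 normalized counts at 0 h, 3098 and 3467 at 2 h, 6115 and 4808 at 6 h, and 16658 and 16922 at 12 h. Its 12 h mean of 16790 ± 187 (SD, n = 2) was 6.36-fold the 0 h mean (log2 change 2.67, SE 0.33, adjusted p = 1.7e-06). Both libraries of each later time lay above both at 0 h. Ccnb1 (chromosome 13, 100778650 to 100786570), the main mitotic cyclin, had 1771 and 1686 at 0 h, 2309 and 1891 at 6 h, and 6654 and 7048 at 12 h, a 3.96-fold rise by 12 h (log2 change 1.99, SE 0.28, adjusted p = 8.5e-06). Ccnb2 (chromosome 9, 70407692 to 70421547), the cyclin B found mostly at the Golgi, had 532 and 446 at 0 h, 595 and 379 at 6 h, and 1791 and 1952 at 12 h, a 3.83-fold rise (log2 change 1.94, SE 0.34, adjusted p = 8.4e-05). For both B cyclins the 12 h libraries stood far above all earlier ones, and for Ccnb2 those at 0 and 6 h overlapped. The counting tool's treatment of reads shared with the pseudogenes Ccnb1-ps and Ccnb2-ps is not given in the sources used here, so part of these counts is uncertain, as is that of Ccna2, whose exons share 510 bases with Exosc9 on the other strand.

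Cdk1 (chromosome 10, 69335146 to 69352938), the kinase that these cyclins activate, had 2866 and 2348 normalized counts at 0 h, 4852 and 3972 at 6 h, and 14388 and 14517 at 12 h. By 12 h it had risen 5.57-fold (log2 change 2.48, SE 0.27, adjusted p = 2.89e-07), and the groups at 0, 6 and 12 h did not overlap. Pkmyt1 (chromosome 17, 23726336 to 23736735), its inhibitory kinase, had 763 and 518 at 0 h, 1678 and 1382 at 6 h, and 2788 and 2717 at 12 h, a 4.37-fold rise (log2 change 2.13, SE 0.22, adjusted p = 2.1e-07). The activator and its brake thus rose in the same libraries. Pkmyt1 shares 319 exon bases with Paqr4 on the opposite strand, and the use of strand in counting is not given in the sources used here.

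Of the Cdc25 phosphatases, which remove the inhibitory phosphate from Cdk1, Cdc25b (chromosome 2, 131186949 to 131198497) had 1177 and 1349 normalized counts at 0 h, 2336 and 2099 at 6 h, and 5110 and 4847 at 12 h. Its rise was 3.95-fold (log2 change 1.98, SE 0.19, adjusted p = 9.31e-08). Cdc25c (chromosome 18, 34732993 to 34751533) had 323 and 383 at 0 h, 394 and 309 at 6 h, and 902 and 801 at 12 h. This was the smallest rise of the 10, 2.41-fold (log2 change 1.27, SE 0.36, adjusted p = 0.00548), and its 0 and 6 h libraries overlapped. Cdc25b shares 92 exon bases with Spef1 and Cdc25c 623 with Gm3550, each on the opposite strand.

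Among the polo kinases, Plk1 (chromosome 7, 122159439 to 122169873) had 1050 and 1109 normalized counts at 0 h, 1684 and 1407 at 6 h, and 5243 and 5459 at 12 h, a 4.95-fold rise (log2 change 2.31, SE 0.26, adjusted p = 4.32e-07). Plk4 (chromosome 3, 40800019 to 40816883) had 1331 and 1090, 1928 and 1743, and 4488 and 4210 at the same times, a 3.61-fold rise (log2 change 1.85, SE 0.19, adjusted p = 1.59e-07). Mastl (chromosome 2, 23115606 to 23156024) had 670 and 656 at 0 h, 868 and 720 at 6 h, and 2887 and 2628 at 12 h, a 4.15-fold rise (log2 change 2.05, SE 0.31, adjusted p = 1.46e-05). In all 3 kinases the gap from 6 to 12 h was wider than the spread between the replicates of either time.

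**Figure D3:**
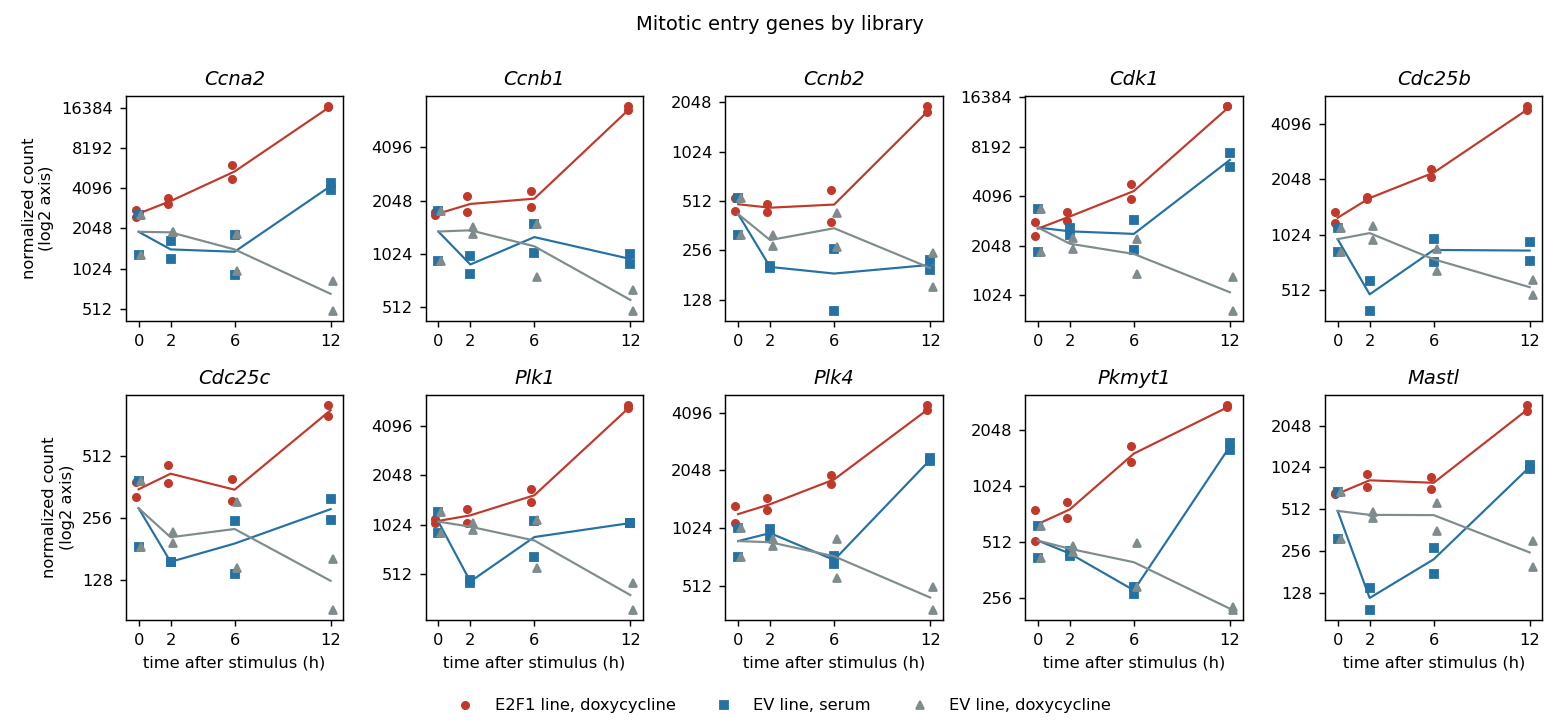
Normalized counts (log2 axis) of the 10 genes in every library against hours after the stimulus, for the E2F1 line with doxycycline (red circles), the EV line with serum (blue squares) and the EV line with doxycycline (grey triangles), with lines through the group means. The EV 0 h libraries are drawn for both EV series. The red points at 12 h are the highest of each panel, up to 16922 for Ccna2, and the grey means at 12 h lie below those at 0 h.

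Levels per kilobase of exon allow the genes to be set beside each other. In the E2F1 line at 0 h the order of the mean normalized counts per kilobase was Ccna2 (648), Cdk1 (528), Plk1 (491), Ccnb1 (410), Cdc25b (339), Ccnb2 (319), Plk4 (177), Pkmyt1 (176), Mastl (115) and Cdc25c (71.8). Neighbours such as Cdk1 and Plk1 (SD 74.2 and 19) or Plk4 and Pkmyt1 (SD 24.9 and 47.6) did not differ beyond their spread. At 12 h the same order held except that Pkmyt1 (756 ± 13.8, SD, n = 2) stood above Plk4 (634 ± 28.7), with Ccna2 at 4112 ± 45.7 and Cdc25c at 173 ± 14.5 at the ends. At 12 h of serum Cdk1 came first (1382 ± 190), then Ccna2 (1041 ± 87.5), Plk1 (477 ± 3.86), Pkmyt1 (459 ± 28.7) and Plk4 (339 ± 7.74). Ccnb1 (227 ± 20.5) and Cdc25b (225 ± 37.6) were level within their spread there, followed by Mastl (179 ± 8.08), Ccnb2 (136 ± 14.3) and Cdc25c (57.5 ± 9.49). Pkmyt1 and Plk4 thus stood above both B cyclins after serum, whereas both B cyclins stood above Pkmyt1 and Plk4 after E2F1.

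The rise with E2F1 was partial and uneven over the 10 genes at 6 h. At 2 h none of the 10 was called (changes from -0.07 to 0.36, median 0.25), with 1.86% of all genes called. None of the 10 was at an unadjusted p under 0.05, against 1676 of all 11208 genes. At 6 h 5 of 10 had risen, against 28.8% of all genes: Pkmyt1 by 1.27 (SE 0.22, adjusted p = 0.000115), Ccna2 by 1.04 (SE 0.33, adjusted p = 0.014), Cdc25b by 0.81 (SE 0.19, adjusted p = 0.00195), Cdk1 by 0.76 (SE 0.27, adjusted p = 0.0233) and Plk4 by 0.61 (SE 0.19, adjusted p = 0.0124). The other 5 had changes of 0.51 (Plk1), 0.27 (Ccnb1), 0.25 (Mastl), -0.01 (Cdc25c) and -0.04 (Ccnb2), with adjusted p from 0.102 to 0.982. With only 10 genes, a count of 5 is not far from the share of all genes. The count of 5 fell to 2, Cdc25b and Pkmyt1, without E2F1 6 h replicate 1 or without E2F1 0 h replicate 2. Cdk1 also missed the threshold under quantile normalization (0.56, adjusted p = 0.0765).

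From 6 to 12 h all 10 rose further in the E2F1 line, by 0.85 (Pkmyt1) to 1.97 (Ccnb2) on the log2 scale, where 15.1% of all genes were called higher. Expressed on linear means, Pkmyt1 had made 42.1% of its 12 h rise by 6 h, Cdc25b 25.7%, Ccna2 and Plk4 19.9% each, Cdk1 15.2%, Plk1 10.9%, Ccnb1 7.25% and Mastl 6.25%. Ccnb2 (-0.145%) and Cdc25c (-0.301%) had made none of it. Among the 10, Pkmyt1 was thus furthest along at 6 h, followed by Cdc25b, and Ccnb2 and Cdc25c were last. These shares come from means of 2 libraries and carry no spread. The calls of Cdc25c and Pkmyt1 from 6 to 12 h were lost without E2F1 6 h replicate 2 (1.11, adjusted p = 0.0844, and 0.71, adjusted p = 0.0676), and that of Cdc25c also without E2F1 12 h replicate 1 (1.2, adjusted p = 0.0653).

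For reference in time, 7 genes of the G1/S step (Ccne1, Ccne2, Cdc6, Mcm3, Mcm5, Rrm2, Pcna) were read from the same fit. All 7 had risen by 6 h of E2F1 (median log2 change 2.05), against 28.8% of all genes. From 6 to 12 h 1 of the 7 (Rrm2) was called higher, against 15.1% of all genes, and that call was lost without any 1 of the 4 libraries. The 10 mitotic entry genes had a median of 0.56 at 6 h and 2.02 at 12 h.

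Without E2F1, doxycycline went with no rise of these genes. In the EV line none of the 10 was called at 2 h (7.35% of all genes called) or at 6 h (0.134% of all genes called). At neither time was any of them at an unadjusted p under 0.05, against 2612 (2 h) and 661 (6 h) of all 11208 genes. At 12 h 7 of the 10 fell, against 3.42% of all genes called lower: Ccna2 by 1.51, Plk1 by 1.49, Cdk1 by 1.28, Ccnb1 by 1.22, Pkmyt1 by 1.18, Plk4 by 0.97 and Cdc25b by 0.85 on the log2 scale (adjusted p from 0.00349 to 0.0182). Ccnb2 (-1.08, adjusted p = 0.0862), Cdc25c (-1.12, adjusted p = 0.0977) and Mastl (-0.92, adjusted p = 0.111) missed the threshold. In all 10 the 12 h values were the lower without overlap, a share not counted over all genes. Ccna2, for one, had 1291 and 2575 normalized counts at EV 0 h and 494 and 833 at 12 h of doxycycline. Plk1 had 907 and 1231 at 0 h and 310 and 455 at 12 h. These falls rest on few libraries: the count was 0 of 10 without EV 0 h replicate 2 or without EV doxycycline 12 h replicate 1, 10 of 10 without EV 0 h replicate 1, and 1 of 10 when only the compared groups were fitted. The labels give no group at 12 h that stayed in low serum without doxycycline, so time and doxycycline cannot be told apart here.

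Against that control the E2F1 response was larger. The E2F1 change minus the EV change, both with doxycycline, was above 0 and called in all 10 genes at 12 h, with values of 2.39 to 4.17 (median 3.12), where 27.3% of all genes were called higher. Ccna2 had 4.17 (SE 0.47, adjusted p = 9.15e-07), Plk1 3.8 (SE 0.36, adjusted p = 1.53e-07) and Cdk1 3.76 (SE 0.38, adjusted p = 2.53e-07), and Cdc25c had the smallest value, 2.39 (SE 0.51, adjusted p = 0.000798). These 10 calls held in every setting that kept the gene in the fit and with any library left out. At 6 h 6 of 10 were called, against 22.2% of all genes: Pkmyt1 (1.68), Ccna2 (1.46), Cdk1 (1.27), Cdc25b (1.17), Plk1 (0.96) and Plk4 (0.89). That count fell to 2 without any 1 of E2F1 6 h replicate 1, E2F1 0 h replicate 2, EV 0 h replicate 2 or EV doxycycline 6 h replicate 1. At 2 h it was 0 of 10, with 0.143% of all genes called. None of the 10 was then at an unadjusted p under 0.05, against 872 of all 11208 genes. At 0 h the 10 genes were not called between the lines (0.03 to 0.53 higher in the E2F1 line), where 15% of all genes were called in either direction. In limma 1 of the 10 was at an unadjusted p under 0.05, against 3301 of all 11208 genes. Without EV 0 h replicate 2, 2 of the 10 were called between the lines.

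Against 0 h, serum gave mixed changes in the set. At 12 h of serum 5 of the 10 had risen in the EV line, against 36% of all genes called higher, and 1 had fallen, against 29.7% called lower. With only 10 genes these shares are not far from those of all genes. The risers were Pkmyt1 by 1.7 (SE 0.22, adjusted p = 2.66e-06), Plk4 by 1.43 (SE 0.19, adjusted p = 3.12e-06), Cdk1 by 1.42 (SE 0.27, adjusted p = 0.000137), Ccna2 by 1.22 (SE 0.33, adjusted p = 0.00357) and Mastl by 1.16 (SE 0.31, adjusted p = 0.00295). Ccnb2 fell by 0.98 (SE 0.34, adjusted p = 0.017). Ccnb1 (-0.44, 95% interval -1.07 to 0.18, adjusted p = 0.175), Cdc25b (-0.2, -0.62 to 0.23, adjusted p = 0.376), Cdc25c (0.07, -0.73 to 0.87, adjusted p = 0.874) and Plk1 (-0.01, -0.57 to 0.55, adjusted p = 0.971) were not called. Against 0 h, serum thus went with more RNA of cyclin A2, Cdk1, Pkmyt1, the centriole kinase and Greatwall. It went with no called rise of the B cyclins, Cdc25b, Cdc25c or Plk1. Against EV doxycycline at the same 12 h, 9 of the 10 were called higher, where 37.9% of all genes were, as described below.

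The libraries show these differences from 0 h directly. Pkmyt1 had 420 and 624 normalized counts at EV 0 h and 1745 and 1597 at 12 h of serum. Cdk1 had 1882 and 3412 at 0 h and 7481 and 6152 at 12 h. Mastl had 311 and 685 at 0 h and 1066 and 1000 at 12 h. In these genes both serum libraries lay above both at 0 h. Ccnb1, by contrast, had 935 and 1799 at 0 h and 1017 and 895 at 12 h of serum, so that the groups overlapped. Plk1 had 907 and 1231 at 0 h and 1054 and 1042 at 12 h. Ccnb2 had 318 and 534 at 0 h and 193 and 224 at 12 h, both lower. The uneven EV 0 h libraries bear on some of these calls: without replicate 1 the rises of Ccna2 (0.72, adjusted p = 0.0957) and Mastl (0.59, adjusted p = 0.105) missed the threshold, and without replicate 2 the fall of Ccnb2 did (-0.61, adjusted p = 0.194). The fall of Ccnb2 was also lost without serum 12 h replicate 1 (-0.88, adjusted p = 0.0896).

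**Figure D4:**
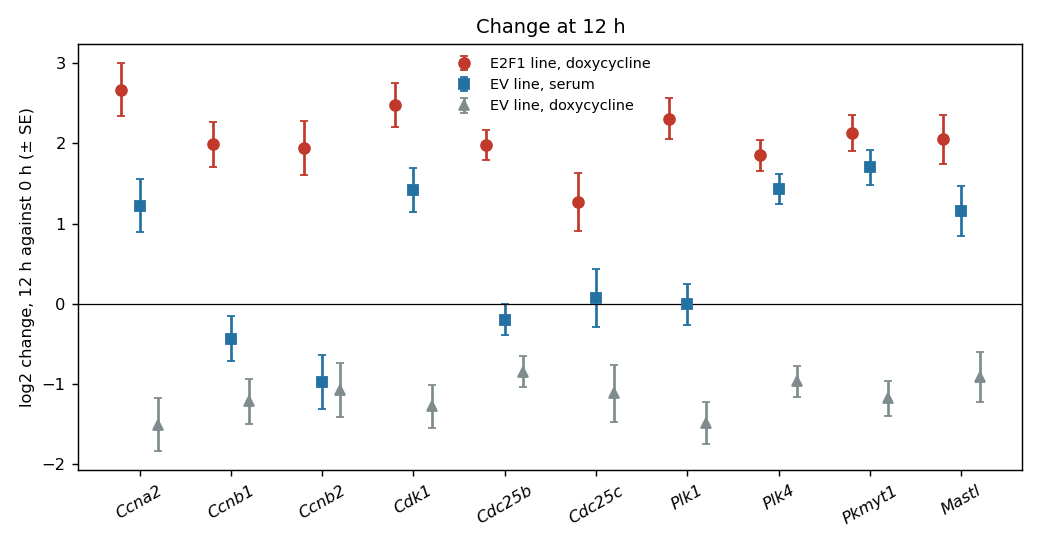
The log2 change from 0 h to 12 h (mean ± SE from the fit, n = 2 libraries per group) of the 10 genes in the E2F1 line with doxycycline (circles), the EV line with serum (squares) and the EV line with doxycycline (triangles). All circles lie between 1.27 and 2.67, the squares range from -0.98 (Ccnb2) to 1.7 (Pkmyt1), and all triangles lie below 0.

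Earlier serum times gave fewer calls. At 2 h 4 of 10 had fallen and 0 had risen, where 33.5% of all genes were called lower and 37.5% higher, so the share that fell was near that of all genes. These were Mastl by 1.99 (adjusted p = 1.27e-05), Plk1 by 1.19 (adjusted p = 0.000412), Ccnb2 by 1.02 (adjusted p = 0.0123) and Cdc25b by 1 (adjusted p = 0.000148). Mastl went from 311 and 685 normalized counts to 139 and 96, 3.97-fold lower. The 2 h count was 7 without EV 0 h replicate 1, and 8 after scaling to equal totals, which shifts the median of all genes by -0.37. At 6 h 3 of 10 had fallen, again near the share of all genes (31% lower, 36.5% higher), and 0 had risen. These were Ccnb2 by 1.29, Mastl by 1.08 and Pkmyt1 by 0.86 (adjusted p from 0.00237 to 0.00468). The 6 h count ran from 0 without EV 0 h replicate 2 to 6 without EV 0 h replicate 1, and was 1 without serum 6 h replicate 1 and 5 without serum 6 h replicate 2. From 6 to 12 h of serum, where 19.3% of all genes were called higher, 5 of 10 rose: Pkmyt1 by 2.56, Mastl by 2.24, Plk4 by 1.74, Ccna2 by 1.71 and Cdk1 by 1.52 (adjusted p from 8.27e-08 to 0.000449). These comparisons do not use EV 0 h, and none of the 5 calls was lost when a library was left out.

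Serum and doxycycline at the same 12 h in the EV line can be compared without the 0 h libraries. Of the 10, 9 were higher with serum, against 37.9% of all genes. Pkmyt1 (2.89), Ccna2 (2.72), Cdk1 (2.7), Plk4 (2.4), Mastl (2.08) and Plk1 (1.48) kept their calls with any of the 4 libraries left out. Cdc25c (1.19), Ccnb1 (0.78) and Cdc25b (0.66) were called with all libraries, and each lost its call when EV doxycycline 12 h replicate 1 was left out (adjusted p from 0.0666 to 0.149) and again without 1 of the serum libraries. Ccnb2 was not called (0.1, 95% interval -0.65 to 0.85, adjusted p = 0.802), with 152 and 247 normalized counts after doxycycline and 193 and 224 after serum. Against the cells of the same time, then, Plk1 was higher with serum, whereas against 0 h it was not called.

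The difference between the E2F1 and serum changes was tested for each gene at 12 h. It was above 0 and called in 6 of 10, against 25% of all genes: Ccnb2 (2.92, SE 0.48, adjusted p = 7.73e-05), Ccnb1 (2.43, SE 0.4, adjusted p = 7.56e-05), Plk1 (2.32, SE 0.36, adjusted p = 4.33e-05), Cdc25b (2.18, SE 0.27, adjusted p = 4.26e-06), Ccna2 (1.45, SE 0.47, adjusted p = 0.0157) and Cdk1 (1.06, SE 0.38, adjusted p = 0.0264). It was not called for Cdc25c (1.2, 95% interval 0.07 to 2.33, adjusted p = 0.0608), Mastl (0.89, -0.06 to 1.85, adjusted p = 0.0978), Pkmyt1 (0.43, -0.27 to 1.12, adjusted p = 0.281) and Plk4 (0.42, -0.17 to 1.01, adjusted p = 0.205). The B cyclins, Plk1 and Cdc25b thus had the widest gap between the stimuli, and their 4 calls held in every setting that kept the gene in the fit. Ccna2 lost its call without EV 0 h replicate 2 (0.95, adjusted p = 0.103), and Cdk1 lost it without any 1 of 5 libraries, at 0.63 (adjusted p = 0.168) without EV 0 h replicate 2. This comparison uses the same E2F1, serum and EV 0 h libraries as the comparisons above.

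At 6 h the same difference was called in 6 of 10, against 30.3% of all genes, in the order Pkmyt1 (2.13), Ccna2 (1.53), Mastl (1.33), Ccnb2 (1.25), Cdc25b (1) and Plk4 (0.91), with adjusted p from 1.44e-05 to 0.0338. Pkmyt1 thus had the widest gap at 6 h and one of the narrowest at 12 h. With only 10 genes, whether a count of 6 exceeds the share of all genes was not tested. The count at 6 h was 3 (Pkmyt1, Cdc25b and Plk4 held in every fit without a library) without EV 0 h replicate 2 or serum 6 h replicate 1.

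**Figure D5:**
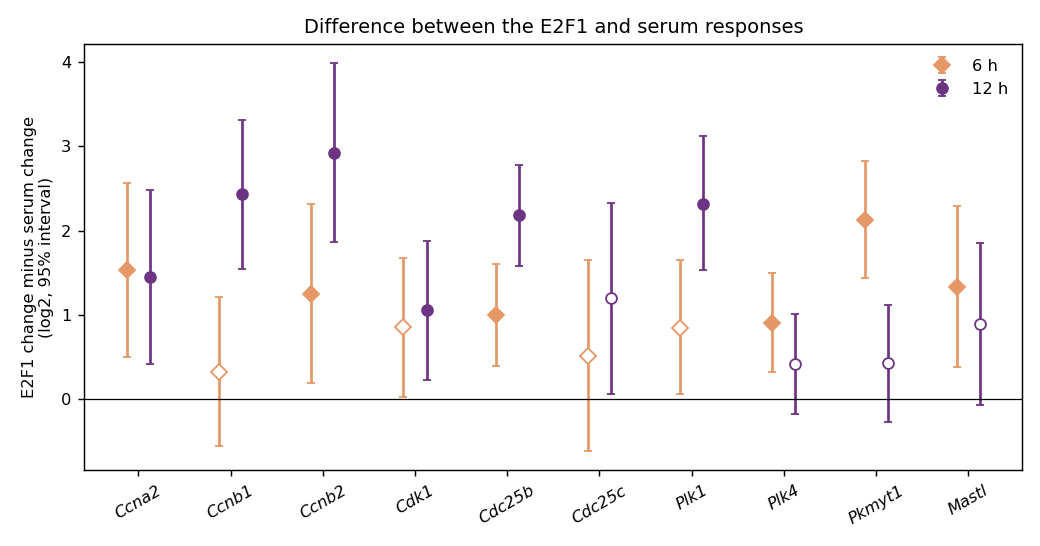
The E2F1 change minus the serum change against 0 h (log2, with 95% intervals from the fit) at 6 h (diamonds) and 12 h (circles), filled where the adjusted p is at most 0.05. At 12 h Ccnb2 (2.92), Ccnb1 (2.43), Plk1 (2.32) and Cdc25b (2.18) are furthest from 0, and Plk4 (0.42) and Pkmyt1 (0.43) are nearest.

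Compared at the same hour without the 0 h libraries, a choice made after seeing how uneven EV 0 h was, all 10 genes were higher with E2F1 than with serum at 6 h (37.1% of all genes called higher) and at 12 h (33.4%). The difference at 12 h ran from 0.72 (Pkmyt1, adjusted p = 0.00864) to 3.16 (Ccnb2, adjusted p = 2.76e-07). On linear means the serum level at 12 h was 60.7% of the E2F1 level for Pkmyt1, 53.5% for Plk4, 47.2% for Cdk1, 37.5% for Mastl, 33.2% for Cdc25c, 25.3% for Ccna2, 19.6% for Plk1, 16.8% for Cdc25b, 14% for Ccnb1 and 11.1% for Ccnb2. The lines differ as well as the stimuli in this comparison, and these cannot be told apart there.

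Across the 22 libraries the 10 genes varied together, with Pearson correlations of log2 values between 0.69 and 0.98 over the 45 pairs (median 0.88). Ccna2 followed the mean of the other 9 most closely (r = 0.983) and Ccnb2 least (0.86). This is a description of points that share time courses and reference libraries. The non-member genes nearest to the mean profile of the set were Spag5 (0.993), Kif4 (0.991), Tacc3 (0.991), Kif11 (0.99) and Kif18b (0.989), followed by Prc1, Arhgap11a, Espl1, Foxm1 and Kif20b (0.988 to 0.986). Of these, Kif4, Kif11, Kif18b and Kif20b code for kinesin motors, Prc1 for a bundler of spindle microtubules, Espl1 for separase and Foxm1 for a transcription factor of G2 and mitotic genes. For single genes the nearest were Foxm1 for Ccna2 (0.995), Pbk for Plk4 (0.991), Ncapg2 for Pkmyt1 (0.989), Parpbp for Mastl (0.982), Trip13 for Cdk1 (0.981), Kif2c for Plk1 (0.976), Ckap2 for Cdc25b (0.974), Cenpa for Ccnb1 (0.971), Fam83d for Cdc25c (0.968) and Lockd for Ccnb2 (0.964).

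Other genes of mitotic entry were taken from lists by role. The counts of these lists at 12 h stand against 31.8% of all genes called higher and 29.7% called lower with E2F1, and 36% called higher and 29.7% called lower with serum. The median change over all genes was -0.02 with E2F1 and 0.05 with serum. The list of Cdk1 partners and activators held 8 genes, 6 of them in the table. Of these, 3 rose and 2 fell with E2F1 (median 0.36), and 4 rose and 1 fell with serum (median 0.49). The falls with E2F1 were near the share of all genes, and 1 of them, Mnat1, lost its call without E2F1 12 h replicate 1 or E2F1 0 h replicate 2. The count of 4 with serum was 2 without EV 0 h replicate 1 or serum 12 h replicate 1, and the fall (Mnat1) was lost without EV 0 h replicate 2 or serum 12 h replicate 1. Cks2, a small subunit of Cdk1 complexes, rose by 1.73 with E2F1 and by 0.47 with serum, the latter lost without EV 0 h replicate 1 or either serum 12 h library. The kinase Cdk2 rose by 1.67 and 1.22.

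Of the brakes and their counterparts, Wee1, Cdc25a and Chek1, 3 of 3 rose with each stimulus (medians 1.47 and 1.7), with any library left out. Wee1, the other kinase that holds Cdk1 inactive, rose by 1.66 with E2F1 and 1.08 with serum, a difference of 0.58 (SE 0.17, adjusted p = 0.00969). That difference missed the threshold without EV 0 h replicate 2 (0.37, adjusted p = 0.0719) or serum 12 h replicate 2 (0.47, adjusted p = 0.0535). The checkpoint kinase gene Chek1 rose by 1.47 with E2F1 and 2.19 with serum, and Cdc25a, the phosphatase of the G1/S step, rose by 1.29 and 1.7. For these last genes the difference between the stimuli was not called (-0.72, adjusted p = 0.083, and -0.41, adjusted p = 0.0544), but without EV 0 h replicate 2 it was called in both (-1.03, adjusted p = 0.0217, and -0.51, adjusted p = 0.0346), and for Cdc25a also without E2F1 0 h replicate 2 (-0.53, adjusted p = 0.0288).

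The polo activators Aurka, Bora and Tpx2 rose in 3 of 3 with E2F1 (median 2.2) and in 1 of 3 with serum (median 0.58), the latter near the share of all genes. The serum count was 3 without EV 0 h replicate 2 and 0 without serum 12 h replicate 1. Bora, which lets Aurora A activate Plk1, rose by 2.44 with E2F1 and by 0.62 with serum, a difference of 1.81 (SE 0.25, adjusted p = 1.17e-05). Tpx2, which targets Aurora A to the spindle, rose by 2.2 with E2F1 and had 0.58 with serum (adjusted p = 0.121), a difference of 1.62 (adjusted p = 0.00696) that missed the threshold without EV 0 h replicate 2 (1.11, adjusted p = 0.0505). Of the Plk4 partners in centriole building 4 of 4 rose with E2F1 (median 2.03) and 3 of 4 with serum (median 1.3), where Cenpj fell by 0.78, a call lost without EV serum 12 h replicate 2 (-0.46, adjusted p = 0.0531). Stil rose by 2.29 and 1.18, and Cep152 by 2.08 and 1.42.

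Downstream of Mastl, 3 of 6 genes of the Greatwall arm rose with E2F1 and 1 fell (median 0.27), and 4 of 6 rose with serum (median 0.33). With so few genes these shares are not far from those of all genes, and the 1 fall, of Ppp2r1a, was lost without any 1 of the 4 libraries. Ppp2r2d, a regulatory subunit of the restrained phosphatase, rose by 0.93 with E2F1 and had 0.15 with serum (adjusted p = 0.187), and Arpp19, a substrate of Mastl, rose by 0.81 and 0.52. Of the 3 other polo kinases listed, 2 were in the table. Plk2 fell by 0.72 with E2F1 and by 0.46 with serum, the latter lost without EV 0 h replicate 2 or serum 12 h replicate 1. Plk3 had -0.1 with E2F1 (adjusted p = 0.737), rose by 0.83 with serum and fell by 0.93 with doxycycline in the EV line (adjusted p = 0.0285). The E2F1 change minus the EV doxycycline change at 12 h was called for Plk3 (0.84, SE 0.33, adjusted p = 0.0416) and not for Plk2 (-0.33, adjusted p = 0.173). The call for Plk3 was lost without any 1 of 5 libraries (0.47 to 0.87, adjusted p from 0.068 to 0.245).

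Of 8 genes for the transcription of G2/M genes, 6 rose with E2F1 (median 1.83), and 5 rose and 2 fell with serum (median 1.16), the falls being near the share of all genes. One of the falls, of Lin37, was lost without EV 0 h replicate 1 or serum 12 h replicate 1. Mybl2, the B-Myb partner of the MuvB complex, rose by 3.35 with E2F1 and 3.41 with serum, a difference of -0.06 (SE 0.37, adjusted p = 0.911). Lin54, the DNA-binding subunit of MuvB, rose by 2.43 and 1.5, a difference of 0.92 (adjusted p = 0.00603), and Foxm1, named as the gene nearest to Ccna2, rose by 2.35 and 1.23. The difference for Foxm1 was 1.12 (adjusted p = 0.014), and 0.79 (adjusted p = 0.0849) without EV 0 h replicate 2.

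Of 5 genes for the turnover of mitotic proteins 4 rose with E2F1 (median 1.38), and 2 rose and 2 fell with serum (median -0.37), both near the shares of all genes. The 2 falls with serum, of Fzr1 and Btrc, were lost without EV 0 h replicate 2. Ccnf, a cyclin that serves as an adaptor for a ubiquitin ligase, rose by 3.26 with E2F1 and by 0.74 with serum, the latter lost without EV 0 h replicate 1 or either serum 12 h library. Fbxo5, an inhibitor of the anaphase-promoting complex, rose by 3.08 and 1.79. Of the 6 other mitotic kinases 6 rose with E2F1 (median 2.24) and 4 with serum (median 1.31), led by Aurkb (2.94 and 1.42) and Haspin (2.71 and 2.07). The serum count was 2 without EV 0 h replicate 1. Apart from those named, no count of a list at 12 h moved by more than 1.5 times when a library was left out, except that Btrc was also called lower with E2F1 without E2F1 12 h replicate 2 and lost its fall with serum without either serum 12 h library.

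All entries of the authors' deposited tables have a log2 change of at least 2 in size. For E2F1 at 12 h against 0 h the authors' deposited table lists 510 genes, 5 of them members, with log2 changes of 2.68 (Ccna2), 2.49 (Cdk1), 2.32 (Plk1), 2.14 (Pkmyt1) and 2.06 (Mastl). The authors' deposited tables for the other 8 comparisons, serum at 12 h included, list 0 of the 10. They list from 2 (EV doxycycline at 6 h) to 1268 genes (serum at 2 h). With serum at 12 h the changes of the 10 here ran from -0.98 to 1.7, all smaller than that limit of 2. Their absence there thus does not speak to smaller changes.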

How the data were processed

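RNA of 22 libraries was analysed, 2 for each of 11 groups taken from the labels. The deposited table holds normalized counts that the authors scaled and rounded to whole numbers, treated here as a score and not as raw counts. The submitters' processing notes name FastQC, Trimmomatic, HISAT2, featureCounts, DESeq2 and mm10. Versions, the use of strand and the annotation release are not given in the sources used here. The authors' deposited tables of comparisons give a log2 fold change and an adjusted p-value per listed gene, per the file headers, and were used only as such.

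The score values were taken to log2(value + 1), and limma 3.58.1 under R 4.3.3 served for all tests. One mean per group was fitted to all libraries (11 residual degrees of freedom) with empirical Bayes moderation and a mean-variance trend, with Benjamini-Hochberg adjustment over 11208 genes. The code was tested on simulated data. Depth as reads is unknown, so no counting interval is given. Intervals are 95% intervals from the change and SE of the fit, with a t distribution of 11 degrees of freedom. The p-values also use the degrees of freedom added by the moderation, so the intervals are somewhat wider than the p-values imply. The members and gene lists, and the rule naming up to 2 genes per role with the largest change at 12 h, were chosen with earlier results of these data known. The alternatives were a pseudocount of 8, quantile normalization, equal totals, a mean of at least 500, the replicate block, leaving out each library, requiring a 2-fold change, and fits of the compared groups alone. The replicate block within each line, the comparison without the 0 h libraries and the recount of the gene lists without each library were added after seeing the data. Positions are from GENCODE M21 (GRCm38), in which 10977 of 11208 identifiers occurred. Promoter windows are from RefSeq (GRCm38.p6). Tables and figures were made with Python 3.11.15, pandas 2.3.3, numpy 2.4.6 and matplotlib 3.10.9.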

Additional observations from a re-analysis of the deposited data

Results flagged for a closer look

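The E2F1 change minus the EV change, both with doxycycline and tested in limma, passed the threshold in 16 values. At 6 h these were Ccna2 1.46, Cdk1 1.27, Cdc25b 1.17, Plk1 0.96, Plk4 0.89 and Pkmyt1 1.68. At 12 h they were Ccna2 4.17, Ccnb1 3.21, Ccnb2 3.02, Cdk1 3.76, Cdc25b 2.83, Cdc25c 2.39, Plk1 3.8, Plk4 2.82, Pkmyt1 3.31 and Mastl 2.97. All are on the log2 scale and higher in the E2F1 line.

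The difference between the E2F1 and serum changes passed it in 12 values. At 6 h these were Ccna2 1.53, Ccnb2 1.25, Cdc25b 1, Plk4 0.91, Pkmyt1 2.13 and Mastl 1.33. At 12 h they were Ccna2 1.45, Ccnb1 2.43, Ccnb2 2.92, Cdk1 1.06, Cdc25b 2.18 and Plk1 2.32. Mastl, Plk4 and Pkmyt1 appear at 6 h and not at 12 h, and whether the gap itself differs between these times was not tested.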

How the results depend on the processing

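All 10 rises with E2F1 at 12 h and all 10 differences from the EV line at 12 h kept their call in every alternative that held the gene, and no called value changed sign. Counts of called members that moved by more than 1.5 times were as follows. Requiring a 2-fold change gave 2 for E2F1 at 6 h. Fitting only the groups compared gave 1 for EV doxycycline at 12 h. Equal totals gave 8 for serum at 2 h. Comparing without the 0 h libraries gave 1 for E2F1 minus EV at 2 h, and 10 for E2F1 minus serum at 6 h and 10 at 12 h. Leaving out each library gave 2 to 5 for E2F1 at 6 h, 0 to 10 for EV doxycycline at 12 h, 3 to 7 for serum at 2 h, 0 to 6 for serum at 6 h, 2 to 7 for E2F1 minus EV at 6 h, 3 to 8 for E2F1 minus serum at 6 h and 0 to 2 for the lines at 0 h. Values near 0 changed sign when a library was left out: Ccnb2 (-0.36 to 0.29) and Cdc25c (-0.19 to 0.16) with E2F1 at 6 h, Ccnb1 (-0.91 to 0.03), Cdc25b (-0.42 to 0.02), Cdc25c (-0.46 to 0.6) and Plk1 (-0.23 to 0.21) with serum at 12 h, and Ccnb2 (-0.25 to 0.45) between serum and doxycycline at 12 h. Cdc25c also changed sign under quantile normalization with E2F1 at 6 h (0.03) and under equal totals with serum at 12 h (-0.01). The causes were not tested.

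With the replicate block the count of called members was 5 for E2F1 at 6 h, 10 for E2F1 at 12 h, 7 for EV doxycycline at 12 h, 6 for serum at 12 h and 7 for E2F1 minus serum at 12 h. With the replicate block within each line the count for the lines at 0 h was 1 and that for EV doxycycline at 12 h was 9. The labels give no shared batch for libraries with the same number, so the numbers were not taken as pairing them. Over 55 pairs of groups the correlation of their deviations ran from -0.28 to 0.45, with 17 over 0.1 and 6 under -0.1. Within the EV line it was 0.45 between 0 h and 6 h of doxycycline, 0.31 between 0 h and 12 h, and 0.3 between 6 h and 12 h of doxycycline. With a mean of at least 500, 8 of the 10 genes were in the fit. The groups of 2 limit the precision, and reads per library are unknown.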
